A study of Syringa oblata with 2 samples.

Results

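The photorespiratory enzymes of *S. oblata* leaves were collected from the assembled unigenes by the text of their best Swiss-Prot match. The text had to name phosphoglycolate phosphatase, glycolate oxidase or another 2-hydroxy-acid oxidase, catalase, a glyoxylate aminotransferase, a subunit of glycine decarboxylase, serine hydroxymethyltransferase, hydroxypyruvate reductase, glycerate dehydrogenase or glycerate 3-kinase. Of 102 unigenes with such a text, 23 whose best match in the Nr protein database lies in rice and 4 that carry the KEGG carbon fixation pathway were left out (1 unigene was both), which left 76 members of 73159 unigenes. The rule reads the annotation text alone. Leaves under natural light (Z0) were compared with leaves from plants under a black net that passed 50% to 60% of the light (Z1), which is 40% to 50% shading. RNA-seq gave 2 libraries per condition (Z0-1, Z0-2, Z1-1 and Z1-2). The plants of both groups grew outdoors on 1 site without added water or fertilizer, and the nets hung from May to the collection of the leaves in September. Levels are given as TPM, a measure from Salmon that corrects for unigene length and sums to the same total in every library.

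When Rubisco takes up oxygen in place of CO2 it forms phosphoglycolate, which blocks carbon fixation and has to be recycled. Phosphoglycolate is dephosphorylated in the chloroplast, oxidized to glyoxylate in the peroxisome with release of hydrogen peroxide that catalase removes, and converted to glycine by aminotransferases. Mitochondrial glycine decarboxylase and serine hydroxymethyltransferase then turn glycine into serine with loss of CO2 and ammonia, and serine returns through hydroxypyruvate and glycerate to the Calvin cycle. In the leaves of plants with C3 photosynthesis these enzymes are abundant.

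The libraries differed in more than light. The 10 unigenes matched to carlaviruses, which infect plants, took up 22.8% of the TPM in Z0-1 and 13.9% in Z0-2, but 0.147% in Z1-1 and 0.0505% in Z1-2. The library Z1-2 stood apart by its rice-matched unigenes, whose sum was 32960 TPM there and 2436 to 2955 TPM elsewhere. The median log2 fold change over all 73159 unigenes was 0.45, and it was 0.23 after median ratio scaling, 0.12 after TMM scaling (trimmed mean of M values) and 0.18 with the carlavirus and rice unigenes taken out before rescaling. Leaf markers were abundant in every library: the Rubisco small subunit summed to between 12074 and 13507 TPM, and Rubisco activase to between 5108 and 6622 TPM. Chlorophyll a-b binding proteins were level, at 7986 and 8058 TPM in Z0 against 7863 and 8118 in Z1. Other markers moved with the condition: photosystem II 10 kDa protein summed to 1001 and 1034 TPM in Z0 against 564 and 816 in Z1, secondary wall cellulose synthases to 36.7 and 30.4 against 11.04 and 14.3, and floral homeotic proteins to 6.86 and 5.90 against 13.96 and 13.5. Of these 3 lists, 1 of the 5 cellulose synthase unigenes passed the test used below, and their part in the results was not tested. The carlavirus level, the trees sampled and the shading divide the libraries in the same way and cannot be told apart. In whole leaves, fewer cells of a type and less RNA per cell cannot be told apart either.

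Few photorespiratory unigenes passed the test, as was so for all unigenes, and the abundant members were mostly lower under shading. Together the 76 members held 1.06% and 1.21% of the TPM in the Z0 libraries against 0.830% and 1.01% in the Z1 libraries. A unigene was counted as changed when limma on log2(TPM + 1), with Benjamini-Hochberg adjustment over all unigenes, gave an adjusted p under 0.05 and the levels differed by a fold over 2. By this rule 3 members were higher in Z1 and 2 lower, and the remaining 71 missed it. When 1 of the 4 libraries was left out, no member was called lower, and 2 were called higher without Z1-1 against 0 without each of the others. Over all unigenes, 11.9% were called higher and 0.218% lower without Z1-1, 5.41% and 0.0402% without Z1-2, and none without Z0-1 or Z0-2. Without limma's trended prior or with a pseudocount of 5 none of the 5 calls was made, and none over all unigenes either; with a pseudocount of 0.1 that of an *SHM4* fragment alone was made. Of all unigenes, 3.2% were called higher and 1.8% lower, and TMM scaling turned that split from 2344 higher and 1317 lower to 1385 higher and 2339 lower. At an unadjusted p under 0.05 with the same fold, 10 members were higher and 6 lower, against 16.5% and 7.71% of all unigenes. The median log2 fold change of the members was -0.01, against 0.45 over all unigenes. Both Z1 libraries lay below both Z0 libraries in 31 members (40.8%) and above them in 18 (23.7%), whereas over all unigenes they lay below in 18.2% and above in 41.5%. The 31 include 8 of the 12 scarce unigenes matched to microbial, animal or other enzymes, described below. For the 60 members matched to a plant enzyme of the pathway, the counts were 21 below (35.0%) and 15 above (25.0%), with a median log2 fold change of 0.06.

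The 25 members with a mean of at least 50 TPM carried most of this pattern. In 17 of them (68.0%) both Z1 libraries were below both Z0 libraries, in 3 above, and in 5 the conditions overlapped. Among the 2375 unigenes of that level, the shares were 17.2% below and 49.6% above. The median log2 fold change of the 25 was -0.39, against 0.31 for the 2375. Of these 25 members, 2 were called lower and none higher, against 0.842% and 4.84% of the 2375. The 2 are *gph1* DN35732_c0_g1, whose place in the pathway is uncertain, and a short *GDCSP* unigene of 764 nt. Of the 25, 15 are plant pathway members of at least 1000 nt. None of these 15 was called, and both Z1 libraries were below both Z0 libraries in 8 (53.3%) and above in 2. Of the 25, 3 had a mean of at least 50 TPM in only 1 condition, and the short *GDCSP* unigene, called lower, is among them, with means of 111 TPM in Z0 and 7.61 TPM in Z1. In 21 of the 25 Z1-1 was lower than Z1-2. The 51 members under 50 TPM had a median of 0.15, with 14 below, 15 above and 22 overlapping. With 2 libraries on each side the smallest p of an exact test is 0.333, so limma, which pools the spread over unigenes, was the only test used.

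The levels were also summed over the unigenes of each step in each library. Close copies of a gene can share reads, and a gene broken into several fragments enters such a sum more than once, so the sums are given as values without a test. The sums of phosphoglycolate phosphatase, glycolate oxidase, the serine aminotransferase, the T and H subunits of glycine decarboxylase, mitochondrial serine hydroxymethyltransferase, hydroxypyruvate reductase and glycerate kinase were lower in both Z1 libraries than in both Z0 libraries. The sum of catalase and that of the non-mitochondrial serine hydroxymethyltransferase *SHM4* were higher in both. So were the sums of the *SHM6* and *SHM7* forms, of phosphoglycerate dehydrogenase and of all 16 serine hydroxymethyltransferase unigenes. The last was 1384 and 1505 TPM in Z0 against 1541 and 1563 in Z1, a log2 ratio of 0.10 as deposited. This ratio fell below 0 under median ratio scaling, under TMM and without the carlavirus and rice unigenes. The *SHM6* and *SHM7* sum overlapped between the conditions under median ratio and TMM scaling. Over the 60 members matched to a plant enzyme of the pathway, the sum was 10313 and 11827 TPM in Z0 against 8123 and 9911 in Z1, a log2 ratio of the condition means of -0.30. Counting only unigenes of at least 1000 nt, that ratio was -0.13.

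**Figure D1:**
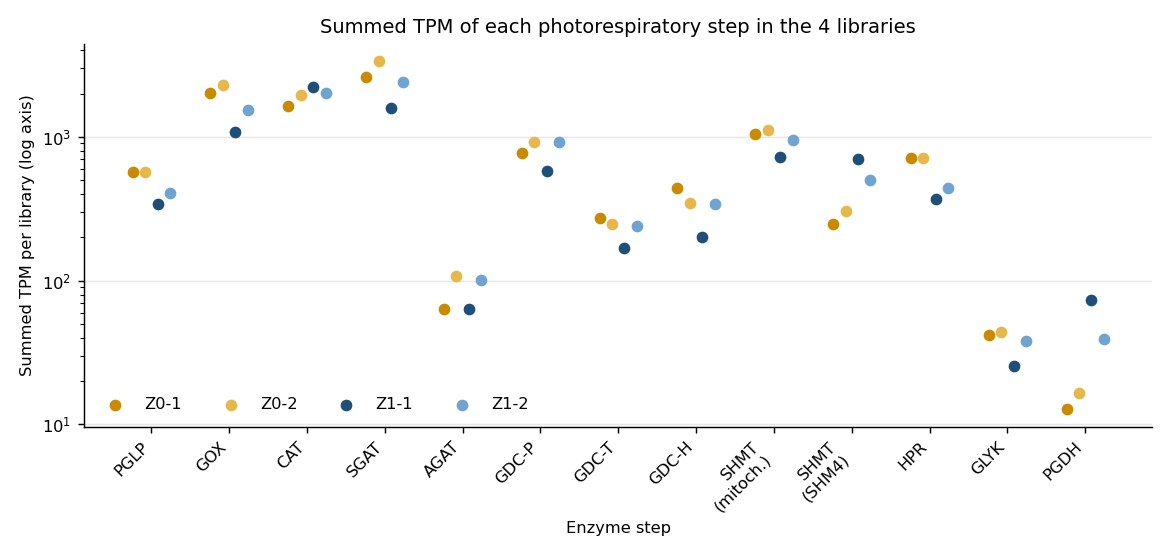
Summed TPM (log axis) of the unigenes of each enzyme step in the 4 libraries, 1 point per library. Glycolate oxidase (GOX) stood at 2008 and 2306 TPM in Z0 against 1089 and 1533 in Z1, while SHM4 stood at 248 and 303 TPM in Z0 against 706 and 501 in Z1. PGLP, phosphoglycolate phosphatase, with the gph1 unigenes; CAT, catalase; SGAT, serine-glyoxylate aminotransferase; AGAT, alanine-glyoxylate aminotransferase; GDC, glycine decarboxylase with its P, T and H subunits; SHMT, serine hydroxymethyltransferase; HPR, hydroxypyruvate reductase; GLYK, glycerate 3-kinase; PGDH, phosphoglycerate dehydrogenase.

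Phosphoglycolate phosphatase opens the pathway in the chloroplast. Its main unigene, *PGLP1A* DN36857_c1_g1, had 211 and 190 TPM in Z0 (Z0-1 first, as in all pairs below) against 141 and 183 in Z1. A shorter *PGLP1A* unigene, DN34857_c0_g2, had 126 and 118 TPM in Z0 against 102 and 105 in Z1. Both were lower in the Z1 libraries without overlap, and neither passed the test (log2 fold change -0.32 ± 0.23 and -0.23, limma adjusted p = 0.410 and 0.449). The value after ± is the standard error here and below. The unigene *gph1* DN35732_c0_g1, with 202 and 232 TPM in Z0 against 74.3 and 93.2 in Z1, fell by 1.37 ± 0.22 on the log2 scale (limma adjusted p = 0.0487). The call was lost with pseudocounts of 0.1 and 5, without the trended prior, with the replicate block and with any library left out (limma adjusted p = 0.0549 to 0.264). The name *gph1* is that of a bacterial phosphatase, and the Nr match of this unigene is a protein with a haloacid dehalogenase-like hydrolase domain, so its place in the pathway is uncertain. With the *gph1* unigenes the step's sum had a log2 ratio of -0.61, and without them -0.28.

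Glycolate oxidase, the peroxisomal enzyme that makes glyoxylate and hydrogen peroxide, was lower in Z1 in each of its 6 abundant unigenes. The leading one, DN36123_c1_g1, had 1011 and 1126 TPM in Z0 against 581 and 780 in Z1, a log2 fold change of -0.66 ± 0.25 (limma adjusted p = 0.164). *GLO1* DN28837_c0_g2 had 340 and 411 TPM in Z0 against 201 and 245 in Z1 (-0.75 ± 0.23, limma adjusted p = 0.118). Both unigenes were without overlap, and neither passed, although *GLO1* DN28837_c0_g2 did under TMM scaling (-1.21, limma adjusted p = 0.0449). The 448 nt unigene DN33926_c1_g2 had the widest gap of the 6, with 275 and 360 TPM in Z0 against 61.8 and 123 in Z1 (-1.84 ± 0.39, limma adjusted p = 0.0689). It did pass under TMM scaling, under a filter at 5 TPM, with the replicate number as a block and with the carlavirus and rice unigenes taken out. It did not pass under median ratio scaling, other pseudocounts, without the trended prior or with any library left out (limma adjusted p = 0.0599 to 0.307). The other 3 abundant unigenes had log2 fold changes of -0.88, -0.40 and -0.21, of which that of *GLO1* DN33926_c1_g1 was -0.27 without Z1-1 and -1.48 without Z1-2. The summed level of the step was 2008 and 2306 TPM in Z0 against 1089 and 1533 in Z1, a log2 ratio of -0.72.

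The remaining 6 unigenes of this step, each with a mean under 12 TPM, were split, with log2 fold changes below 0 in 3 and above 0 in 3. *GLO5* DN36123_c1_g3 had 2.83 and 4.80 TPM in Z0 against 12.1 and 6.03 in Z1, and *GLO4* DN34509_c0_g1 had 9.12 and 16.0 TPM in Z0 against 10.2 and 9.52 in Z1. *GLO5* was higher in both Z1 libraries, and *GLO4* overlapped. *GLO1* DN36123_c2_g1 and *GLO1* DN27747_c0_g2 were at 26.9 and 18.7 TPM in Z1-2 and at most 0.35 TPM in the other libraries. Their Nr text names the rice protein OsGLO1 without giving an organism, and 22 of the 23 rice-matched unigenes left out have the same pattern, with over 2 TPM in Z1-2 and under 1 TPM in the others. Without this pair the median of the members was -0.03.

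Catalase, which breaks down the hydrogen peroxide of the glycolate oxidase step, did not share the lower levels. *CAT1* DN36609_c0_g2 had 530 and 691 TPM in Z0 against 1093 and 767 in Z1 (0.60 ± 0.29, limma adjusted p = 0.247). The other abundant *CAT1* unigene, DN30828_c2_g1, had 742 and 720 TPM in Z0 against 532 and 732 in Z1 (-0.23, limma adjusted p = 0.532). *CAT2* DN31234_c0_g1 had 299 and 441 TPM in Z0 against 481 and 420 in Z1. The first was higher in both Z1 libraries, whereas the other *CAT1* unigene and *CAT2* overlapped. Among the scarcer unigenes, *CAT3* DN29169_c1_g2 stood at 3.77 and 2.85 TPM in Z0 against 15.2 and 14.4 in Z1 and rose by 1.88 ± 0.24 on the log2 scale (limma adjusted p = 0.0390). *CAT2* DN31838_c1_g2, a fragment of 207 nt, stood at 0.65 and 0 TPM in Z0 against 7.67 and 5.68 in Z1 and rose by 2.57 ± 0.37 (limma adjusted p = 0.0430). Neither call was made under TMM scaling (1.48 and 2.30), nor was that of the fragment under median ratio scaling (2.37). The catalase sum was 1648 and 1951 TPM in Z0 against 2233 and 2026 in Z1, a log2 ratio of 0.24. This direction turned under other scalings, to -0.07 with median ratio, -0.21 with TMM and -0.03 with the carlavirus and rice unigenes taken out.

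The ratio of glycolate oxidase to catalase within a library does not depend on how the libraries are scaled. It was 1.22 in Z0-1 and 1.18 in Z0-2, and 0.488 in Z1-1 and 0.757 in Z1-2. The Z0 libraries were thus close to each other and both Z1 libraries lower. Of the abundant *CAT1* unigenes, the level of DN36609_c0_g2 over that of DN30828_c2_g1 was 0.715 and 0.960 in Z0 against 2.05 and 1.05 in Z1. In Z0-2 and Z1-2 this pair was thus nearly equal, and the widest gap was in Z1-1.

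**Figure D2:**
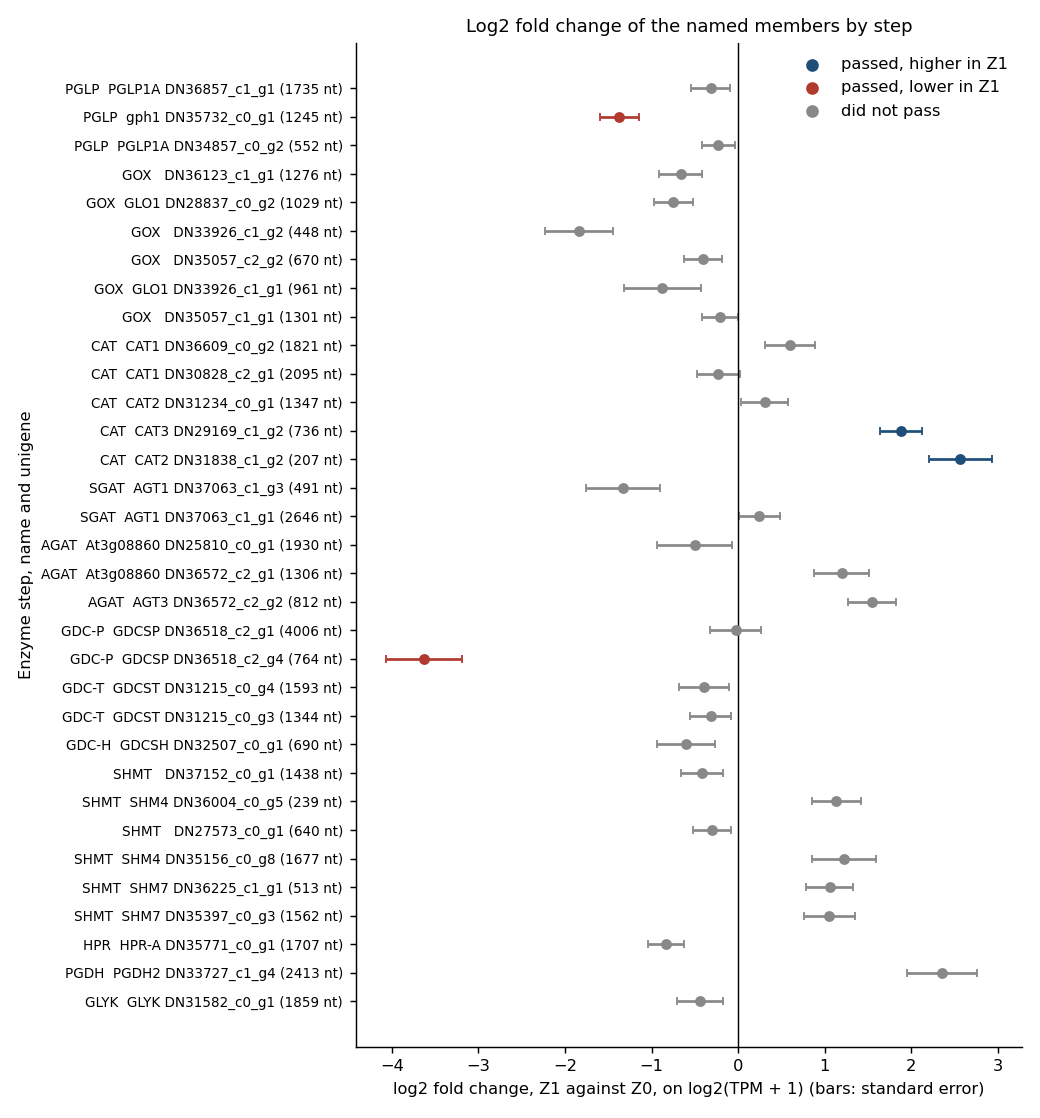
Log2 fold change of Z1 against Z0 on log2(TPM + 1) for 33 members in pathway order, with bars for the standard error and the unigene length in brackets. Points of members that passed are blue (higher) or red (lower), and the GOX unigenes lie to the left of 0, from -1.84 to -0.21. The SHM4 unigene that was listed at 0 in both Z0 libraries is not drawn.

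The aminotransferase that uses serine to make glycine from glyoxylate in the peroxisome had the largest summed level of all steps in Z0-1, Z0-2 and Z1-2, in a long and a short unigene of 1 Trinity component. The long one, *AGT1* DN37063_c1_g1 (2646 nt), had 1057 and 943 TPM in Z0 against 1047 and 1339 in Z1 (0.25 ± 0.24, limma adjusted p = 0.494). The short one, *AGT1* DN37063_c1_g3 (491 nt), had 1551 and 2407 TPM in Z0 against 551 and 1070 in Z1 (-1.33 ± 0.43, limma adjusted p = 0.130). The long unigene overlapped between conditions, whereas the short one was lower in both Z1 libraries, and neither passed. Short over long was 1.47 and 2.55 in Z0 against 0.526 and 0.799 in Z1. The step's sum had a log2 ratio of -0.57 and the long unigene alone 0.25, so the direction of the step rested on the fragment. The long unigene turned to -0.07 under median ratio scaling, -0.21 under TMM and -0.03 without carlavirus and rice.

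The alanine-glyoxylate aminotransferases, matched to mitochondrial forms that make glycine from glyoxylate with alanine, were scarce. *At3g08860* DN25810_c0_g1, the most abundant, had 42.5 and 85.0 TPM in Z0 against 33.4 and 53.1 in Z1, and the conditions overlapped (-0.50). *AGT3* DN36572_c2_g2 had 2.63 and 3.28 TPM in Z0 against 8.78 and 12.5 in Z1 (1.54 ± 0.28, limma adjusted p = 0.0547). *At3g08860* DN36572_c2_g1 had 3.46 and 4.80 TPM in Z0 against 8.42 and 13.4 in Z1 (1.19 ± 0.32, limma adjusted p = 0.0975). These last unigenes, of 1 component, were higher in both Z1 libraries and missed the threshold. The glutamate-dependent aminotransferase, *GGAT2* DN36460_c0_g1, carries the carbon fixation pathway in KEGG and so stood outside the 76. Its levels of 435 and 429 TPM in Z0 against 333 and 433 in Z1 overlapped (-0.19, limma adjusted p = 0.574). The scarce *GGAT1* DN29389_c0_g3, left out for the same reason, had 10.2 and 10.1 TPM in Z0 against 0.76 and 1.01 in Z1 and fell by 2.57 on the log2 scale (limma adjusted p = 0.0340). *GGAT2* DN28107_c0_g6 had 3.64 and 5.47 TPM in Z0 against 0.61 and 0.68 in Z1 (-1.74, limma adjusted p = 0.0513).

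Glycine decarboxylase, the mitochondrial complex that releases CO2 from glycine, was represented by its P, T and H proteins. The P protein, which carries the decarboxylation itself, again lay in a long and a short unigene of 1 component. The long *GDCSP* DN36518_c2_g1 (4006 nt) had 701 and 775 TPM in Z0 against 574 and 909 in Z1 (-0.03 ± 0.30, limma adjusted p = 0.949). The short *GDCSP* DN36518_c2_g4 (764 nt) had 70.6 and 152 TPM in Z0 against 6.17 and 9.04 in Z1, and fell by 3.63 ± 0.44 on the log2 scale (limma adjusted p = 0.0380). The long unigene, which holds most of the level, had its lowest and its highest value in the Z1 libraries, and the short one was far lower in both. Short over long was 0.101 and 0.197 in Z0 against 0.011 and 0.010 in Z1.

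The T protein, which passes the methylene group to tetrahydrofolate, had 178 and 175 TPM in Z0 against 107 and 168 in Z1 in *GDCST* DN31215_c0_g4 (-0.39). Its second unigene *GDCST* DN31215_c0_g3 had 93.8 and 74.2 TPM in Z0 against 60.5 and 73.6 in Z1 (-0.32). The H protein *GDCSH* DN32507_c0_g1, the lipoyl carrier of the complex, had 435 and 340 TPM in Z0 against 193 and 332 in Z1 (-0.60 ± 0.34, limma adjusted p = 0.310). In each of the 3 the Z1-2 value came close to the lower Z0 value, and none of them passed. The *GDH2* H protein DN26281_c0_g1 was at most 8.40 TPM and overlapped.

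**Figure D3:**
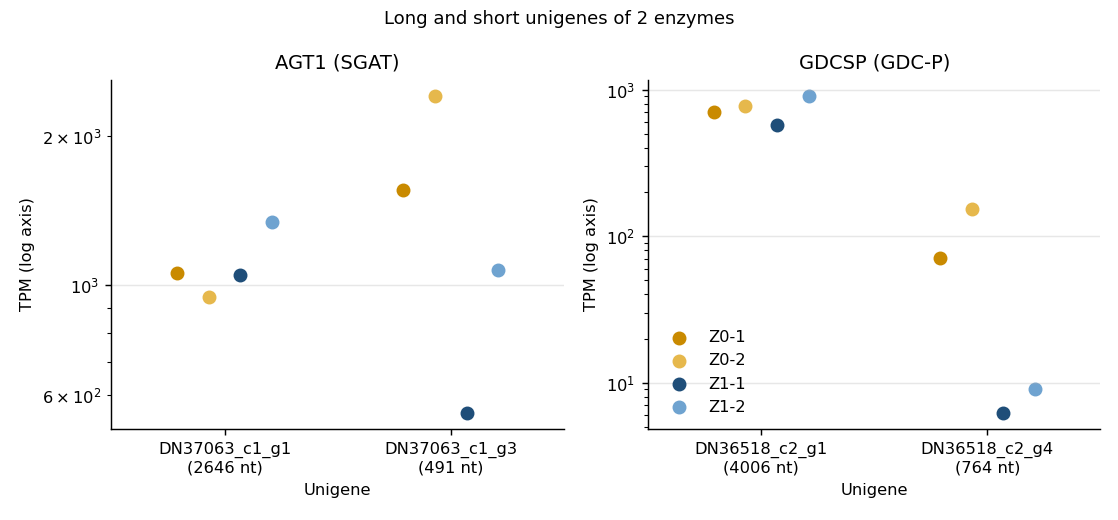
TPM (log axis) of the long and the short unigene of AGT1 (left) and GDCSP (right) in the 4 libraries, 1 point per library, with unigene lengths in nt. The short GDCSP unigene stood at 70.6 and 152 TPM in Z0 against 6.17 and 9.04 in Z1, while the long one overlapped between the conditions; the short AGT1 unigene was lower in both Z1 libraries and the long one overlapped.

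Serine hydroxymethyltransferase joins glycine and a methylene group into serine, and plants hold forms in the mitochondrion, the chloroplast, the cytosol and the nucleus, of which the mitochondrial form serves photorespiration. The main mitochondrial unigene DN37152_c0_g1 had 756 and 814 TPM in Z0 against 505 and 681 in Z1 (-0.42 ± 0.24, limma adjusted p = 0.320). The mitochondrial unigene DN27573_c0_g1 had 280 and 288 TPM in Z0 against 204 and 260 in Z1 (-0.30). Both were lower in the Z1 libraries without overlap, and neither passed.

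The *SHM4* unigenes, matched to a form that is cytosolic in *Arabidopsis*, lay the other way. *SHM4* DN36004_c0_g5 (239 nt) had 166 and 209 TPM in Z0 against 494 and 340 in Z1 (1.13 ± 0.28, limma adjusted p = 0.0846). *SHM4* DN35156_c0_g8 (1677 nt) had 31.0 and 40.8 TPM in Z0 against 115 and 62.1 in Z1 (1.22 ± 0.37, limma adjusted p = 0.116). *SHM4* DN36004_c0_g6 (227 nt) was listed at 0 in both Z0 libraries and had 26.8 and 23.8 TPM in Z1 (limma adjusted p = 0.0334), and no fold is given against a group listed at 0. This fragment was the only one of the 6 *SHM4* unigenes that passed, and all 6 had a positive log2 fold change, with a median of 0.96. Their sum was 248 and 303 TPM in Z0 against 706 and 501 in Z1, a log2 ratio of 1.13, and it stayed above 0 under median ratio scaling (0.81), TMM (0.68) and without carlavirus and rice (0.86).

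Mitochondrial serine hydroxymethyltransferase over *SHM4* was 4.22 and 3.69 in Z0 against 1.03 and 1.91 in Z1, a ratio that no scaling of the libraries touches. Its size rests on the 239 nt *SHM4* fragment DN36004_c0_g5. That fragment held 166 and 209 of the 248 and 303 TPM of *SHM4* in Z0, and 494 and 340 of the 706 and 501 in Z1. Among the forms matched to *SHM7*, DN36225_c1_g1 had 13.5 and 10.8 TPM in Z0 against 31.3 and 22.0 in Z1 (1.06, limma adjusted p = 0.0917). *SHM7* DN35397_c0_g3 had 7.19 and 4.48 TPM in Z0 against 13.8 and 12.02 in Z1 (1.05, limma adjusted p = 0.102). Both were higher in the Z1 libraries and missed the threshold, though they passed with a filter at 5 TPM, under which 12.7% of the 31035 unigenes tested were called higher. The other *SHM7* unigenes, DN32079_c0_g3 (0.16) and DN36225_c1_g2 (0.03), overlapped. The chloroplast form *SHM3* DN37813_c2_g1 was level, at 27.2 and 25.4 TPM in Z0 against 23.7 and 29.3 in Z1 (0.01).

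Hydroxypyruvate reductase, the peroxisomal enzyme that makes glycerate, had nearly the same level in both Z0 libraries and a lower one in both Z1 libraries. *HPR-A* DN35771_c0_g1 had 713 and 712 TPM in Z0 against 366 and 436 in Z1, a log2 fold change of -0.83 ± 0.21 (unadjusted p = 0.0123 in limma's fit over all unigenes, adjusted p = 0.0858). The unigene missed both the adjusted p and the fold asked for. Under TMM scaling it was -1.29 and passed (limma adjusted p = 0.0431), but it did not pass under median ratio scaling or without carlavirus and rice (limma adjusted p = 0.0653 and 0.0510). Set against the long *AGT1* unigene of the same organelle, its level was 0.674 and 0.755 in Z0 against 0.350 and 0.326 in Z1. The sum of the step over that of the serine aminotransferase, which includes the short *AGT1* unigene, overlapped, at 0.276 and 0.214 in Z0 against 0.231 and 0.183 in Z1. *HPR3* DN30763_c0_g2, a minor form, had 2.33 to 3.87 TPM and overlapped.

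Glycerate 3-kinase, which returns the carbon to the chloroplast's Calvin cycle, had a single unigene. *GLYK* DN31582_c0_g1 had 42.0 and 43.6 TPM in Z0 against 25.6 and 38.1 in Z1 (-0.44 ± 0.27, limma adjusted p = 0.337). It was lower in both Z1 libraries and did not pass.

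Phosphoglycerate dehydrogenase, which the search text also took, is a plastid enzyme of a separate route to serine that does not start from glycine. *PGDH2* DN33727_c1_g4 had 6.10 and 8.31 TPM in Z0 against 57.4 and 28.5 in Z1 (2.35 ± 0.40, limma adjusted p = 0.0514). *PGDH1* DN34340_c0_g1 had 6.61 and 8.11 TPM in Z0 against 15.6 and 10.8 in Z1 (0.75). Both were higher in the Z1 libraries without overlap. *PGDH2* narrowly missed the threshold, and it passed under a filter at 5 TPM, with the replicate number as a block and without carlavirus and rice, but not under median ratio or TMM scaling (limma adjusted p = 0.0538 and 0.0669).

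The search text also took 12 unigenes whose Swiss-Prot match is a microbial or animal protein or another enzyme, among them 5 matched to a fungal catalase-peroxidase (*katG*). Each of the 12 had a mean under 5 TPM and none of them passed. All 5 *katG* unigenes, from 1 component, were lower in both Z1 libraries, with log2 fold changes from -1.19 to -0.39. Their part in the leaf was not tested.

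**Figure D4:**
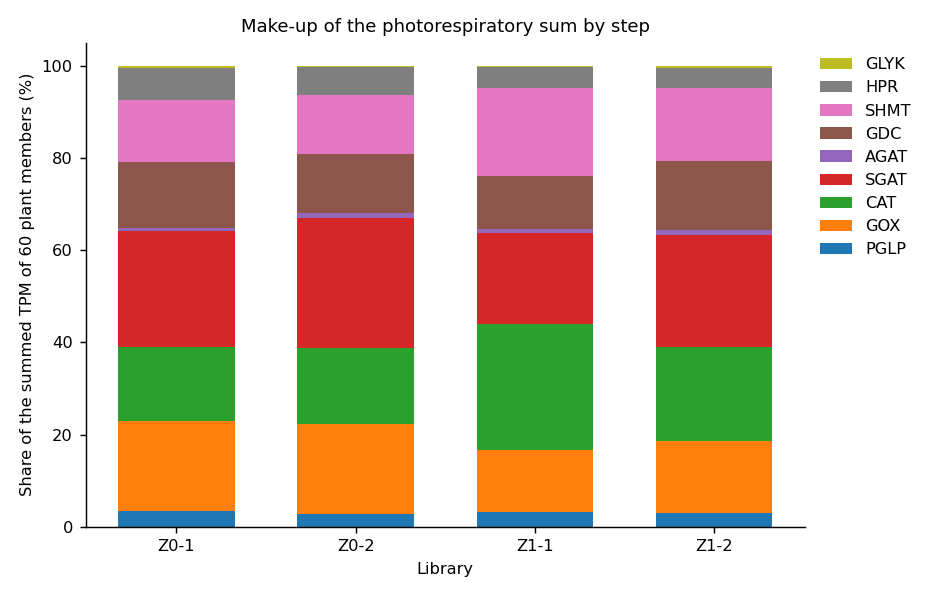
Share of each enzyme step in the summed TPM of the 60 plant pathway members, in percent, stacked to 100% for each of the 4 libraries; PGDH and gph1 are not included. GOX took 19.5% in both Z0 libraries and 13.4% and 15.5% in Z1, and CAT 16.0% and 16.5% in Z0 against 27.5% and 20.4% in Z1.

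The make-up of the pathway's sum shows these differences with the total taken out. Glycolate oxidase took 19.5% of the sum in both Z0 libraries, and 13.4% and 15.5% in Z1. Hydroxypyruvate reductase took 6.97% and 6.05% in Z0 against 4.55% and 4.44% in Z1. Both shares were lower in Z1 without overlap. Catalase took 16.0% and 16.5% in Z0 against 27.5% and 20.4% in Z1, and *SHM4* 2.41% and 2.56% in Z0 against 8.69% and 5.05% in Z1. The mitochondrial form of serine hydroxymethyltransferase kept a share of 8.95% to 10.2% in all 4 libraries, and its conditions overlapped.

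**Figure D5:**
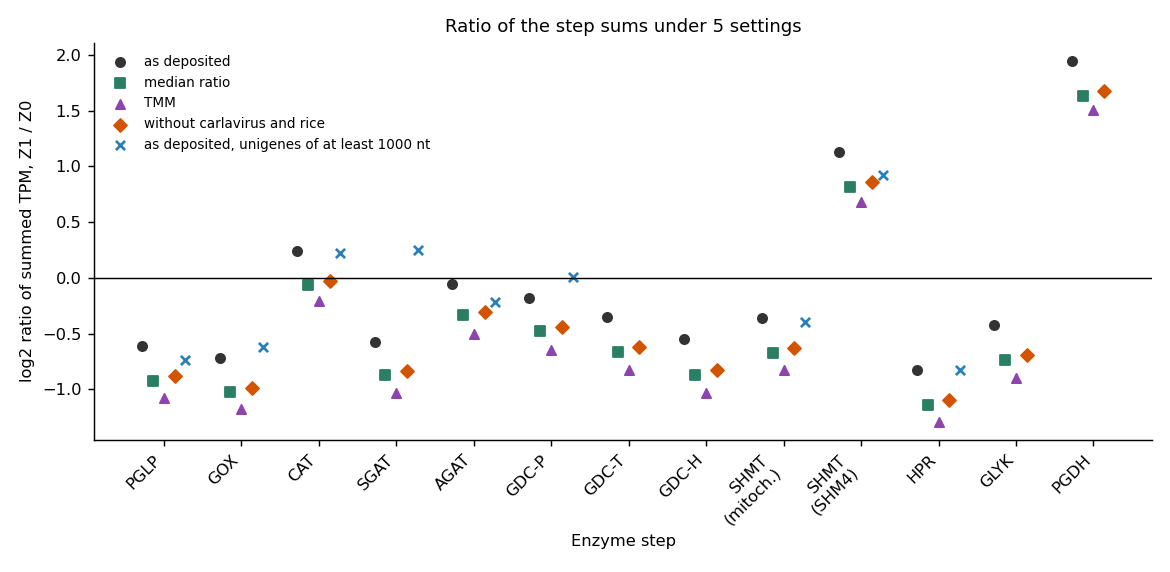
Log2 ratio of the summed TPM of each step, Z1 over Z0, as deposited, under 3 other scalings and as deposited with only unigenes of at least 1000 nt (crosses, drawn where a step holds both longer and shorter unigenes). GOX ran from -1.18 under TMM to -0.62, HPR from -1.29 to -0.82 and SHM4 from 0.68 to 1.13, while CAT ran from -0.21 to 0.24 and SGAT from -1.03 to 0.25.

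Scaling moved every step in the same direction, so the plot of ratios under 5 settings separates the steps whose sign held. Glycolate oxidase stayed at or below -0.62, hydroxypyruvate reductase at or below -0.82 and mitochondrial serine hydroxymethyltransferase at or below -0.36. Catalase, the P protein and the serine aminotransferase did not keep 1 sign across these settings. Nor did the sum of all 16 serine hydroxymethyltransferase unigenes, which is not plotted.

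Proteins that work beside the pathway gave 85 further unigenes in 10 lists, with a median log2 fold change of 0.24. Of them 1 rose, the glyoxysomal malate dehydrogenase DN36688_c1_g5 (583 nt), from 4.92 and 5.62 TPM in Z0 to 16.6 and 17.4 in Z1. The mitochondrial *MDH2* DN9150_c0_g2 (226 nt) fell, from 5 and 6.58 TPM in Z0 to values listed at 0 in Z1. Both are scarce fragments, and the abundant unigenes of these lists did not pass. *PLGG1* DN35001_c0_g1, the chloroplast transporter that exports glycolate and imports glycerate, had 88.3 and 85.3 TPM in Z0 against 38.9 and 73.0 in Z1 (-0.69 ± 0.35, limma adjusted p = 0.265). *GLYR1* DN34947_c1_g1, a reductase that turns glyoxylate back into glycolate, had 49.3 and 50.8 TPM in Z0 against 19.2 and 22.6 in Z1 (-1.23 ± 0.20, limma adjusted p = 0.0504). The glyoxysomal malate dehydrogenase DN32583_c1_g2, which supplies reducing power in the peroxisome, had 261 and 274 TPM in Z0 against 155 and 223 in Z1 (-0.52). All 3 were lower in both Z1 libraries, and none of them passed.

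Glutamine synthetase and glutamate synthase, enzymes that take up ammonia, did not share that direction. The leading glutamine synthetase unigene, *GLN1* DN38083_c1_g2, had 463 and 473 TPM in Z0 against 803 and 493 in Z1 (0.43). Its match names no organelle, and its part in photorespiration was not tested. The leading ferredoxin-dependent glutamate synthase, matched to a chloroplast form, had 504 and 561 TPM in Z0 against 413 and 577 in Z1 (-0.12). The glutamine synthetase unigene was higher in both Z1 libraries and the glutamate synthase overlapped. The most abundant unigenes of the L protein of glycine decarboxylase (-0.07), the dicarboxylate transporter *DIT1* (0.31), *FOLD2* (-0.09), *PURU2* (-0.05) and the carrier BOU (0.06) did not pass. Of the KEGG lists with the members taken out, to be read against 3.2% higher, 1.8% lower and a median of 0.45 over all unigenes, photosynthesis had 2 higher and 2 lower of 128 unigenes, with a median of -0.06. The glyoxylate and dicarboxylate list had 2 higher and 9 lower of 202 (median -0.11), and the peroxisome list 5 higher and 7 lower of 261 (median 0.23). Carbon fixation had 8 higher and 7 lower of 276 (median 0.07), antenna proteins 1 higher and 2 lower of 25 (median -0.35), and the glycine, serine and threonine list 14 higher and 7 lower of 149 (median 0.51).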

How the data were processed

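Leaf RNA from Z0 and Z1 was sequenced on an Illumina HiSeq and assembled with Trinity by the authors. The authors deposited TPM, estimated with Salmon, with the length and annotation of 73159 unigenes. The submitters' processing notes also name cutadapt, FastQC and edgeR; versions of these: not given in the sources used here. Labels list 1 sample per condition, and column names give the 2 libraries; the molecule is labelled genomic DNA although the described extraction is of RNA. The methods give 2 biological repeats without the trees behind each, so p-values measure the spread between these libraries. TPM keep no read numbers, so depth and its precision are unknown.

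Here log2(TPM + 1) of all unigenes with at least 1 TPM in 1 library, which is every unigene and all 76 members, was compared with limma 3.58.1 (R 4.3.3; data.table package, version 1.17.8), with a trended prior and no covariate, and tested on simulated data. Fold changes on this scale understate those of low unigenes. Tables and plots used Python 3.11.15, pandas 2.3.3 and matplotlib 3.10.9. Alternatives were pseudocounts, filters, scalings (TMM unweighted, 30% of M and 5% of A trimmed), no trended prior, a replicate block, a fold of 1.5, leaving out each library, and members without phosphoglycerate dehydrogenase or under 5 TPM. Chosen after seeing the data were sums per Trinity component, plant pathway members only, members without OsGLO1 unigenes, unigenes of at least 1000 nt, and phosphatase without *gph1*. Named members are the most abundant of each step, those of at least 50 TPM, and those called or with an unadjusted p under 0.05 and a fold over 2 that reach 5 TPM, with the most abundant unigene of each list of neighbouring proteins. *GLO5*, *GLO4*, the OsGLO1 pair, *GDH2*, *SHM3*, the level *SHM7* pair, *HPR3*, *PGDH1*, *katG*, *GGAT1*, *GGAT2* and the changed malate dehydrogenases were named after their values were seen. BOU was found by gene name. Members and lists were chosen with earlier results of these data known.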

Additional observations from a re-analysis of the deposited data

How the results depend on the processing

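The 3 members called higher became 1 under TMM scaling, 10 with a filter at 5 TPM, 0 without the trended prior, 1 with a pseudocount of 0.1, 0 with a pseudocount of 5 and 0 when TPM were summed per Trinity component. The 2 called lower became 5, 3, 0, 0, 0 and 0. The filter at 5 TPM kept the 3 higher calls and added *PGDH2*, *AGT3* DN36572_c2_g2, *At3g08860* DN36572_c2_g1, *SHM4* DN36004_c0_g5 and DN35156_c0_g8, and *SHM7* DN36225_c1_g1 and DN35397_c0_g3. Over all unigenes, higher and lower calls were 1.91% and 3.22% under TMM, 12.7% and 4.86% with the 5 TPM filter, and 0.484% and 0.272% with a pseudocount of 0.1, against 3.2% and 1.8%. With 1 library left out, 1 condition holds a single library. The log2 fold change then ran from 1.73 to 2.03 for *CAT3* DN29169_c1_g2 and from 2.21 to 2.93 for the *CAT2* fragment. It ran from -1.53 to -1.21 for *gph1* DN35732_c0_g1 and from -4.18 to -3.08 for the short *GDCSP* unigene. None of these calls was made in such a fit. Over all unigenes limma called 0 without the trended prior, with a pseudocount of 5, without Z0-1 or without Z0-2 (17994, 4115, 13307 and 12406 at an unadjusted p under 0.05). The members' median of -0.01 was -0.41 under TMM and -0.22 to 0.04 with 1 library left out. Directions that turned were *CAT2* DN31234_c0_g1 (0.31; -0.15 under TMM and -0.0062 under median ratio), the long *AGT1* DN37063_c1_g1 (-0.21 under TMM, -0.069 under median ratio, -0.027 without carlavirus and rice), *CAT1* DN30828_c2_g1 (-0.46 to 0.0016 with 1 library left out, above 0 without Z1-1) and the long *GDCSP* DN36518_c2_g1 (-0.36 to 0.30, above 0 without Z0-2 and without Z1-1). The cause was not tested. The library numbers occur in the column names alone, and deviations of same-numbered libraries correlated at -0.087 across unigenes. This single value, which includes the rice-matched unigenes of Z1-2, cannot show whether same-numbered libraries share a batch. With the replicate block 4 members were called higher and 2 lower, against 3 and 2: *gph1* was lost, DN33926_c1_g2 and *PGDH2* were gained.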
